A study of Raphidocelis subcapitata with 270 samples.

Results

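The 100 genes described here were low in solvent controls of the freshwater green alga Raphidocelis subcapitata. Each had a higher mean in at least 1 of 84 chemical treatments than over all 18 control libraries. They were taken from 13429 genes listed by identifier. A gene qualified when its mean over 18 dimethyl sulfoxide (DMSO) libraries was under 5 CPM (the count of a gene scaled to a library of 1000000 counts) and all 3 libraries of at least 1 treated group were over 5 CPM. Of 4048 genes under the DMSO limit, 583 had such a group, and the 100 with the highest single group mean were kept. The group that placed a gene on the list is called its peak group. In 2 genes a group that failed the library minimum had a higher mean than the peak group. A gene with all 3 libraries of a group over 5 CPM is called on in that group. The genes were thus chosen by their DMSO and peak CPM, so these values are given as a description with no test.

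Algae in exponential growth were exposed for 24 h in 96-well plates to 1 of 12 contaminants or to DMSO alone, and the ends of polyadenylated transcripts were counted. Each chemical was given at 7 labelled levels, D1 to D7, with 3 libraries (A, B and C) a level, and each of 6 sets of 3 DMSO libraries served a pair of chemicals. The pairs were 1(2H)-Phthalazinone with Gabapentin, Metribuzin-DA with 2-tert-butyl-4-methoxyphenol, Hydrochlorothiazide with 4-chlorophenyl methyl sulfone, Cetirizine Hydrochloride with Fipronil carboxamide, Fexofenadine with cis-nonachlordane, and Metolachlor OA with 3,4-Dichlorophenyl isocyanate. The series text gives half-log dilutions typically from 66.7 to 0.021 µM, but neither the concentration of a level nor the end of the range that D1 stands for is given in the sources used here, so levels are treated as named groups. The strain is not given either. Whether libraries A, B and C came from separate cultures is not stated, and the spread behind each p-value may therefore be technical. Library totals ran from 596651 to 1909938 counts with a median of 1083755, so 5 CPM stood for 2.98 to 9.55 counts. CPM is relative to the whole library, so more RNA of a gene and less RNA of other genes cannot be told apart. The files pair no identifier with a gene name, so the genes go by identifier and their functions are not described.

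Algae meet foreign chemicals with enzymes that oxidise, conjugate and export them, among them cytochromes P450, glutathione transferases and membrane transporters, and many such genes are known to be induced on exposure. 2-tert-butyl-4-methoxyphenol is a phenolic antioxidant used as a food preservative and is known in mouse to induce conjugating enzymes. Gabapentin is an anticonvulsant drug, 3,4-Dichlorophenyl isocyanate is a reactive aromatic isocyanate, and Metribuzin-DA and Fipronil carboxamide are transformation products of a herbicide and an insecticide. Whether any listed gene belongs to these enzyme families cannot be read from the identifiers.

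The name "near silent in DMSO, switched on" fitted only some of the 100 genes. The DMSO mean ran from 0.150 to 4.95 CPM with a median of 3.70, and it was under 1 CPM in 7 genes. The peak group mean ran from 12.6 to 297 CPM with a median of 15.5. The ratio of peak mean to DMSO mean ran from 2.55 to 123 with a median of 4.47, and it reached 10 in 21 genes. All 3 peak libraries were above all 18 DMSO libraries in 57 genes, and above the 3 DMSO libraries of their own control set in 71. In 88 genes at least 1 DMSO library was over 5 CPM, and 34 were on in at least 1 DMSO set. In 12 genes the highest DMSO library was above the peak mean itself. The list held both genes with a ratio of 10 or more and genes whose control libraries reached the peak level.

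**Figure D1:**
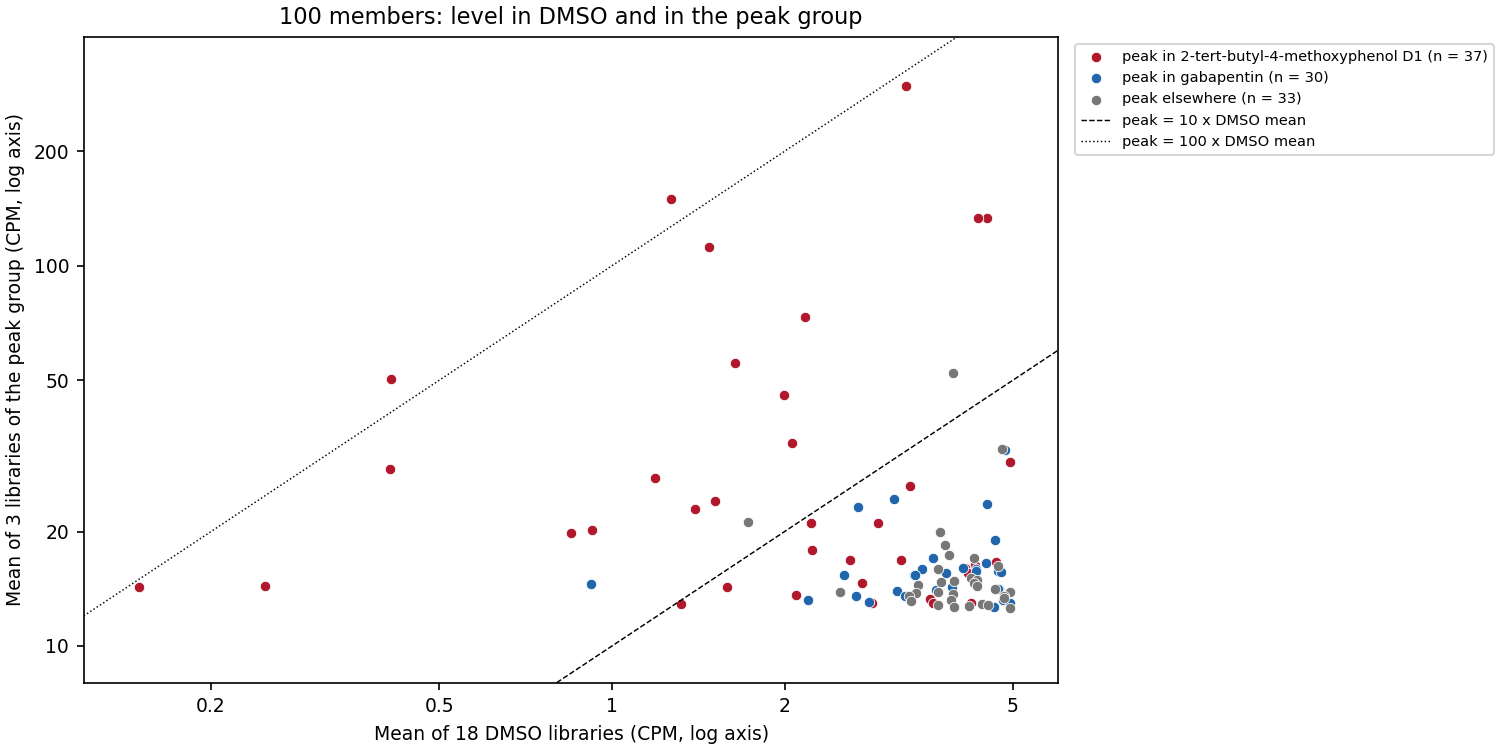
Mean level of each of the 100 genes over the 18 DMSO libraries (x, CPM, log axis) against the mean of the 3 libraries of its peak group (y, CPM, log axis), 1 point a gene, coloured by where the peak lay. The 21 genes at or above the dashed line of a ratio of 10 include 18 that peaked in 2-tert-butyl-4-methoxyphenol D1, and most other points lie near the lower right corner.

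The peaks were unevenly spread over the chemicals. 2-tert-butyl-4-methoxyphenol held 39 of them, 37 at D1 and 2 at D2. Gabapentin held 30, of which 9 were at D1, 5 each at D2, D3 and D5, 4 at D6, and 1 each at D4 and D7. Metolachlor OA and 3,4-Dichlorophenyl isocyanate held 7 each, 1(2H)-Phthalazinone 5, cis-nonachlordane 4, Metribuzin-DA 3, 4-chlorophenyl methyl sulfone and Fipronil carboxamide 2 each, and Cetirizine Hydrochloride 1. Hydrochlorothiazide and Fexofenadine held none. Of the 21 genes with a ratio of at least 10, 19 peaked in the methoxyphenol. The others were Rsub_04680 in 1(2H)-Phthalazinone D1 and Rsub_04767 in Gabapentin D1, both named after their values were seen. A typical listed gene was on in 9 treated groups of 4 chemicals, while 13 were on in 1 group only and 19 in 1 chemical only.

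**Figure D2:**
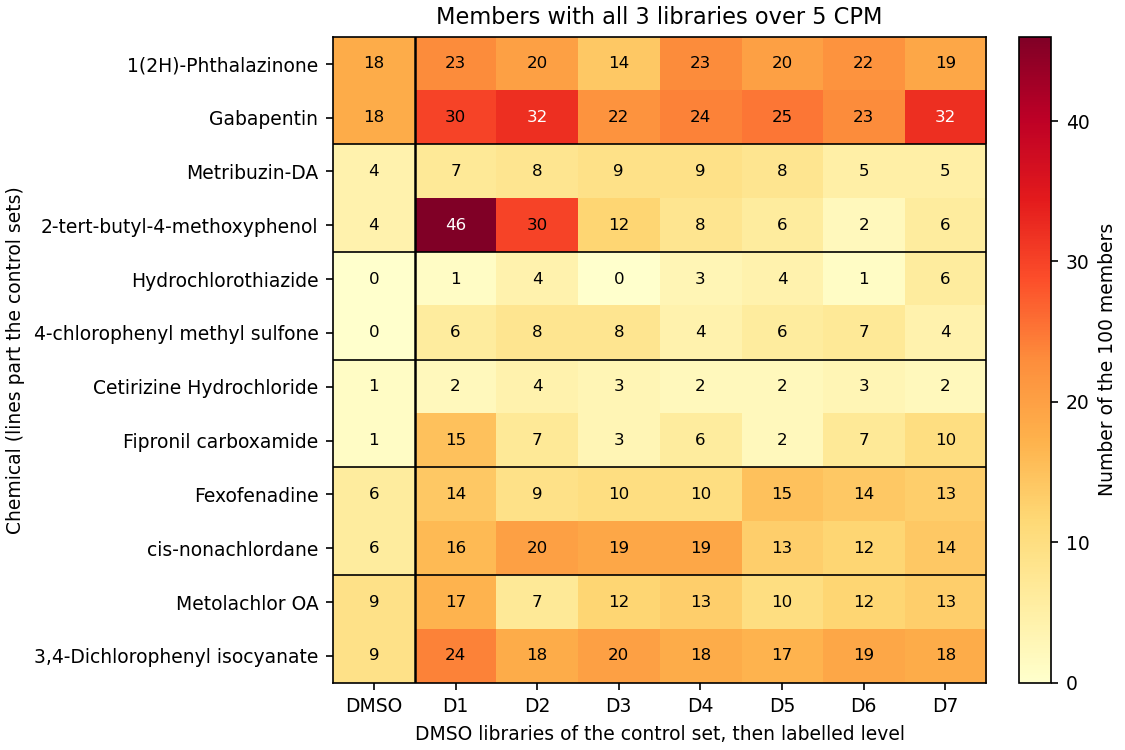
Number of the 100 genes with all 3 libraries over 5 CPM in each group, by chemical (rows, with lines between control sets) and by DMSO set or labelled level (columns). The count was 46 in 2-tert-butyl-4-methoxyphenol D1 and 30 at its D2, between 22 and 32 over the Gabapentin levels, and 18 in the DMSO set of Gabapentin and 1(2H)-Phthalazinone.

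The 37 genes that peaked in 2-tert-butyl-4-methoxyphenol D1 formed the most sharply raised group. Their DMSO median was 2.22 CPM and their median peak was 20.2 CPM, with a median ratio of 9.79 and a range from 3.06 to 123. In 34 of them all 3 peak libraries were above their own DMSO libraries, and in 31 above all 18. Of the 37, 11 were on in that group only and 17 in that chemical only. None was on in the DMSO libraries that the methoxyphenol shared with Metribuzin-DA, and 2 were on in some DMSO set.

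The most abundant was Rsub_11816, at 184, 343 and 363 CPM in libraries A, B and C of D1. It stood at 154, 168 and 218 CPM at D2 and at 26.9, 38.8 and 43.0 CPM at D3. The 3 DMSO libraries of the set held 4.32, 3.30 and 3.08 CPM. Every library of D1 to D3 was above every DMSO library, including the highest of all 18 at 14.7 CPM, and the means at D4 to D7 were between 4.32 and 8.27 CPM.

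Rsub_07717 had the second highest peak and a different course over the levels. It reached 118, 165 and 168 CPM at D1. At D2 the libraries held 0.842, 0.716 and 1.72 CPM, next to 1.08, 0.825 and 0 CPM in DMSO. The gene was on in no other treated group of the series, and no library of D2 to D7 exceeded 4.67 CPM. Rsub_04686 had the same course at a lower level, with 19.5, 34.3 and 29.3 CPM at D1 and 2.53, 0.716 and 1.72 CPM at D2.

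Rsub_10042, Rsub_06717 and Rsub_03355 followed Rsub_11816 in rank and in course. Rsub_10042 read 105, 153 and 144 CPM at D1 and 41.3, 55.1 and 66.4 CPM at D2. Rsub_06717 read 133, 131 and 137 CPM at D1 and 69.9, 78.7 and 81.9 CPM at D2. Rsub_03355 read 96.6, 133 and 107 CPM at D1 and 57.3, 78.7 and 55.2 CPM at D2. In all 3 the D2 libraries lay below the D1 libraries and above the DMSO libraries of the set, which reached at most 5.77, 7.42 and 3.24 CPM in that order.

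Lower in the order, the spread of the D1 libraries differed from gene to gene. Rsub_11909 read 80.2, 83.0 and 56.4 CPM and Rsub_00075 read 52.4, 47.2 and 37.8 CPM. More widely spread, Rsub_02415 read 30.8, 51.8 and 84.2 CPM and Rsub_08954 read 17.5, 48.0 and 37.1 CPM. Rsub_13354 and Rsub_06272 were highest in library A, at 51.4 against 16.0 and 23.9 CPM for the first and 58.6 against 14.5 and 14.7 CPM for the second. These spreads make the order of neighbouring genes in the middle of the list uncertain. Rsub_12393 was tighter, at 21.6, 25.9 and 24.7 CPM.

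A few of these genes were close to zero without the methoxyphenol. Rsub_10639 had no count in the 3 DMSO libraries of the set or in 14 of all 18, and read 34.9, 58.6 and 57.9 CPM at D1 and 16.8, 4.30 and 4.31 CPM at D2. Rsub_05611, named after its values were seen, had no count in 15 of 18 DMSO libraries and read 14.4, 13.7 and 14.7 CPM at D1. Rsub_08913, named likewise, had none in 14 and read 12.3, 12.2 and 18.5 CPM. For all 3 the highest of the 18 DMSO libraries was under the lowest D1 library, at 2.96, 0.980 and 1.54 CPM.

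**Figure D3:**
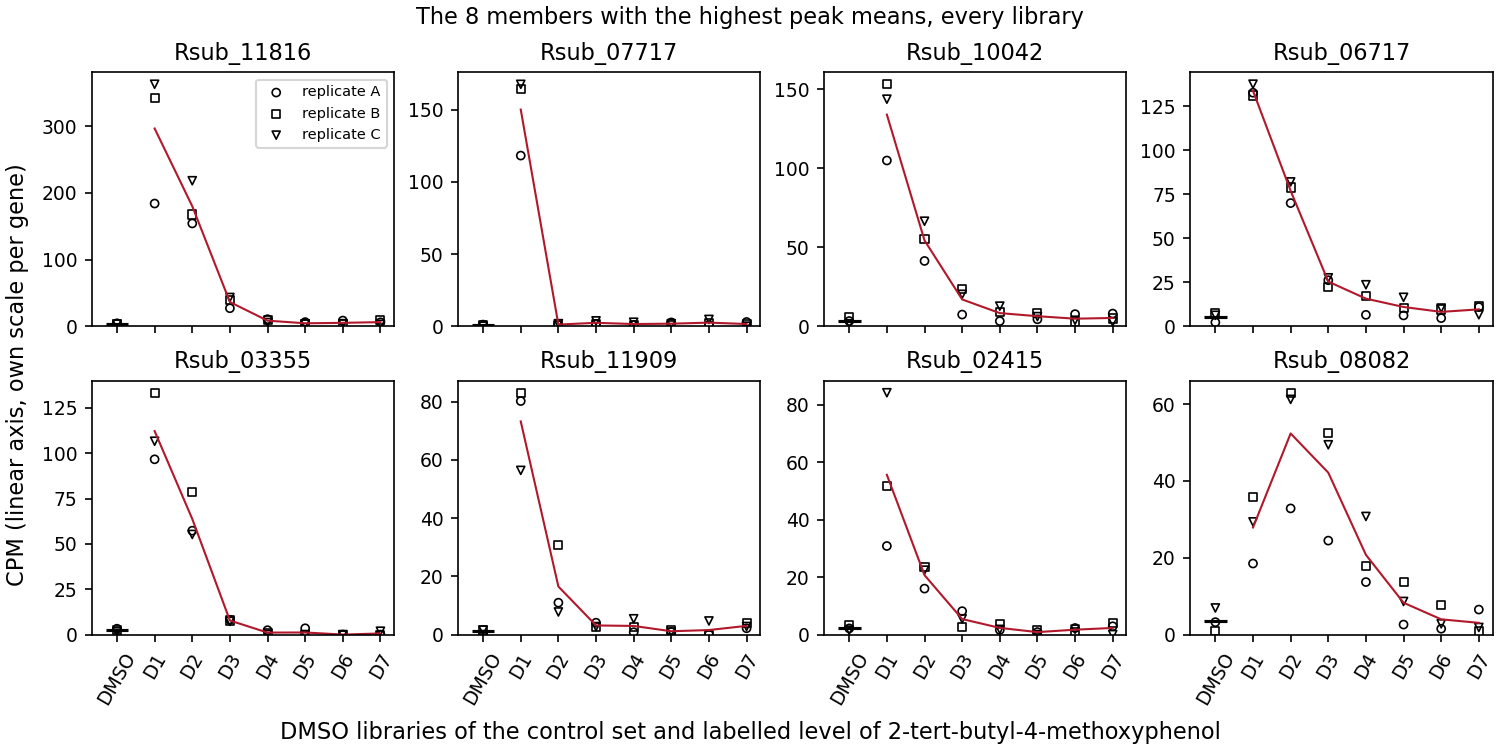
Level of the 8 genes with the highest peak means in every library of 2-tert-butyl-4-methoxyphenol and of its 3 DMSO libraries (y, CPM, linear axis with its own scale per gene; x, group). Open symbols are libraries A, B and C, the line joins group means and the bar is the DMSO mean; 7 genes were highest at D1, Rsub_07717 was back at 1.09 CPM by D2, and Rsub_08082 was highest at D2.

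Library A of D1 stood apart from the other two. Across 8699 genes, the Pearson correlation of log2(CPM + 1) was 0.910 between A and B, 0.898 between A and C, and 0.966 between B and C, and 0.898 was the lowest of all 90 groups. Library A was the lowest of the 3 in 17 of the 37 genes and the highest in 13. It was more than 2-fold above both others in 4 genes and more than 2-fold below both in 5. Genes are not independent replicates, so no test was made of these correlations. Summed over the 37 genes, D1 read 1410, 1657 and 1676 CPM in A, B and C, a level that the rule fixed in part. The part of library A in the values of single genes was not tested.

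The summed level of the 37 genes fell from D1 to D3 and was lower again at D4 to D7. The highest genes weigh most in these sums. Rsub_11816 alone had means of 297, 180 and 36.2 CPM at D1, D2 and D3. The sums were 621, 646 and 669 CPM at D2 and 208, 210 and 225 CPM at D3, and the means of D4 to D7 lay between 95.3 and 131 CPM. The DMSO libraries of the set summed to 91.7, 94.9 and 87.8 CPM, and the level means of Metribuzin-DA, which shared those DMSO libraries, to between 97.5 and 111 CPM. From D1 to D7 the number of the 37 genes that were on was 37, 21, 7, 3, 4, 1 and 1. The D2 mean was a median of 36.6% of the D1 mean, with a range from 0.729% to 97.4%. The 37 on at D1 and the fall from D1 to D2 follow in part from the rule, which took D1 as the peak. Rsub_07717, Rsub_04686 and Rsub_05306 kept less than 10% of their D1 mean.

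The list rule used D2 to D7 only in that none that was on had a higher mean than D1. Genes higher at D2 thus fell outside the 37. Within that limit, D2 libraries allow a test against D3 to D7 with D1 and DMSO left out. In edgeR's quasi-likelihood test of D2 against the mean of D3 to D7, adjusted by Benjamini and Hochberg over 13072 genes, 19 of the 37 genes were higher and none lower, where 3.08% of all genes tested were called higher. The log2 fold change was above 0 in 34 of the 37, with a median of 1.76 beside 0.01 over all genes tested. DESeq2 called 15 of the 37 higher. The count was 14, 13 and 17 without libraries A, B and C in turn.

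Several of the highest of the 37 genes were among those called at D2. Rsub_11816 was 4.46 ± 0.18 higher (log2, SE, n = 3 libraries a level; adjusted p = 2.15e-81 in edgeR). Rsub_10042 was 2.91 ± 0.25 higher and Rsub_06717 2.65 ± 0.21 higher on the same scale. Rsub_02415, Rsub_12685, Rsub_13354, Rsub_00075 and Rsub_11909 were higher by 3.26 ± 0.41, 2.44 ± 0.33, 2.51 ± 0.33, 2.38 ± 0.54 and 2.95 ± 0.44. Rsub_03355, Rsub_10639 and Rsub_06272 were called as well, but each had at least 1 of D3 to D7 with no count in any library, so no fold is given for them.

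Calls of some genes rested on single libraries. Rsub_11909 was highest at D2 in library B, at 30.8 CPM against 10.9 and 7.76 CPM, and without library B its adjusted p was 0.0840 in edgeR. Rsub_10639 was highest at D2 in library A, at 16.8 CPM, and without A its adjusted p was 0.123. Rsub_08954 had the weakest call, 1.40 ± 0.45 with an adjusted p of 0.0478, and its adjusted p was 0.114, 0.139 and 0.296 without A, B and C in turn. DESeq2 gave it 0.276. Rsub_07717 showed no call in the same edgeR test, with a log2 fold change of -0.67 ± 0.95 and an adjusted p of 0.877, as did Rsub_04686 at -0.11 ± 0.90 with 1.00.

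A second edgeR test set D2 of the methoxyphenol against D2 of Metribuzin-DA, the chemical with the same DMSO libraries, with no DMSO library in the fit. Of the 37 genes 10 were higher in the methoxyphenol and none lower, where 4.22% of 13257 genes tested were called higher. Under the rule, Metribuzin-DA D2, where it was on, could not exceed methoxyphenol D1 either, so the absence of lower calls is not read. The log2 fold change was above 0 in 32 of the 37, with a median of 1.42 beside 0 over all genes. The count was 7, 7 and 9 without A, B and C, and DESeq2 gave an adjusted p for only 2 of the 37, both called.

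Rsub_11816 read 0, 0 and 5.98 CPM at D2 of Metribuzin-DA, and was 6.27 ± 0.44 higher (log2, SE, n = 3) in the methoxyphenol, with an edgeR adjusted p of 1.86e-29. Rsub_06717, at 3.60, 3.27 and 5.23 CPM in Metribuzin-DA, was 4.25 ± 0.44 higher. Rsub_10042, under 10 CPM in each Metribuzin-DA library with no count in B, was 3.27 ± 0.47 higher. In these genes no library of one chemical overlapped the other. Rsub_02415 and Rsub_12685 were called at 3.80 ± 0.79 and 2.98 ± 0.60. Rsub_03355, Rsub_11909, Rsub_02995 and Rsub_06272 were called too, but held only 1 to 3 counts over the 3 Metribuzin-DA libraries, so their size is not given.

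Several of these calls were lost when a library was left out. Rsub_13354 was 2.72 ± 0.57 higher with all libraries and 1.58 higher without A, where its edgeR adjusted p was 0.155. Without B the adjusted p of Rsub_11909 was 0.130. That of Rsub_02995 was 0.0938 without A and 0.0809 without B. Rsub_06272 had an adjusted p of 0.0444 with all libraries and of 0.221, 0.328 and 0.138 without A, B and C.

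**Figure D4:**
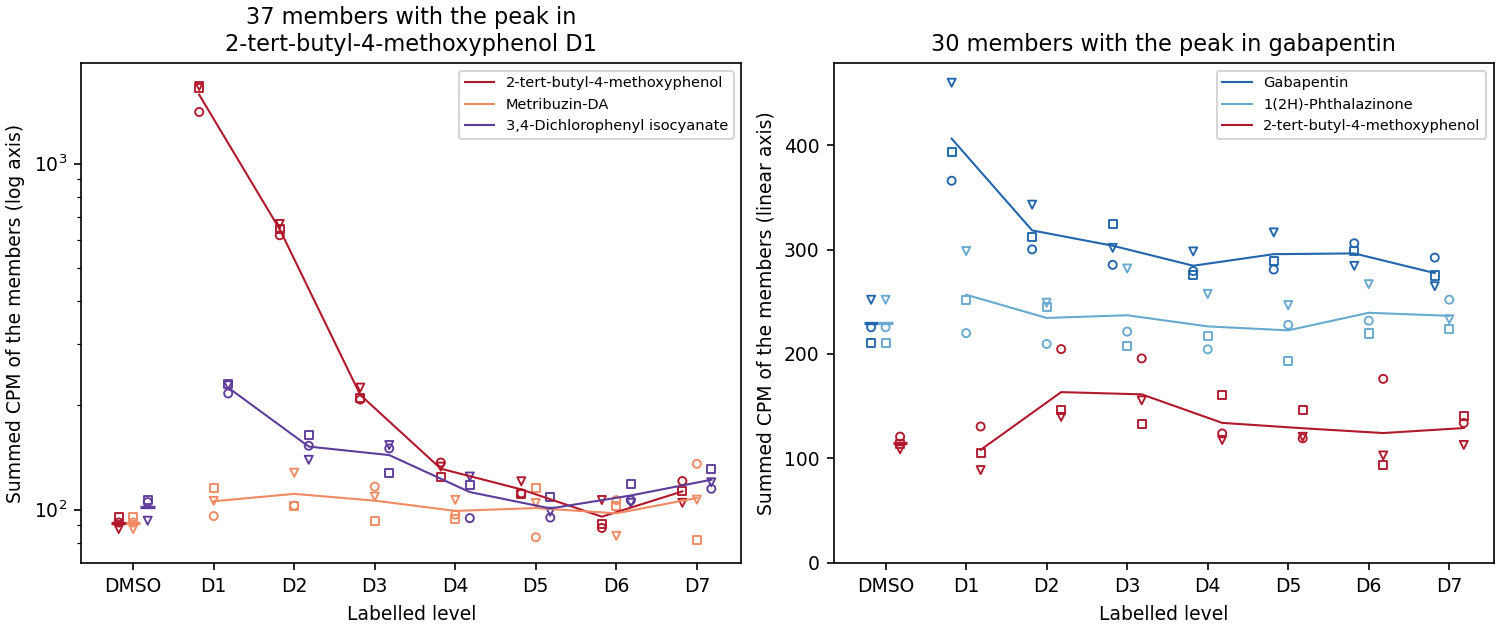
Summed CPM of the 37 genes that peaked in 2-tert-butyl-4-methoxyphenol D1 (left, log axis) and of the 30 that peaked in Gabapentin (right, linear axis) by DMSO set and labelled level; open symbols are libraries A (circle), B (square) and C (triangle), lines join group means and bars are DMSO means. The left sums were between 1410 and 1676 at D1 with level means of 95.3 to 131 at D4 to D7, while on the right the Gabapentin, 1(2H)-Phthalazinone and shared DMSO libraries all lay above the methoxyphenol libraries of D1.

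Some of the 37 genes were also higher at D1 of 3,4-Dichlorophenyl isocyanate. Its D1 libraries summed to 217, 230 and 229 CPM over the 37 genes, against level means of at most 152 CPM at D2 to D7 and 105, 107 and 92.8 CPM in its DMSO libraries. It held the highest group outside the methoxyphenol for 12 of the 37. When its D1 libraries were tested against the mean of its D2 to D7 with no DMSO library, edgeR called 5 of the 93 listed genes that peaked in other chemicals higher, where 1.28% of 13163 genes were called higher. All 5 were among the 37. DESeq2 gave none of the 93 an adjusted p, and 8 had an unadjusted p under 0.05 and were higher.

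Rsub_11816 read 20.3, 28.2 and 30.7 CPM at isocyanate D1 and was 1.74 ± 0.29 higher than over D2 to D7 (log2, SE, n = 3; edgeR adjusted p = 1.91e-05). Rsub_06717 read 22.2, 14.1 and 20.5 CPM and was 1.65 ± 0.34 higher. Rsub_12685 read 16.4, 32.6 and 29.2 CPM and was 1.57 ± 0.28 higher. All D1 libraries of Rsub_11816 and Rsub_06717 were above their 3 isocyanate DMSO libraries, whereas for Rsub_12685 DMSO library B held 20.5 CPM, within the D1 range. Rsub_06272 read 10.6, 5.43 and 10.2 CPM at D1, with no count in the 3 DMSO libraries or at D4. Rsub_07917, outside the rule for named genes, was called at 1.73 ± 0.50 with an edgeR adjusted p of 0.0382, which was 0.0846, 0.133 and 0.409 without A, B and C. Rsub_10042 read 16.4, 19.5 and 14.2 CPM there but was not called.

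The same test of D1 against D2 to D7 was run for the listed genes that peaked elsewhere in each of the other 11 chemicals, and few were called. Over all 12 chemicals, 22 of 1098 pairs of a gene and a chemical, 2.00%, were called higher, near the 2.1% of all genes tested. Genes that peaked in the tested chemical were left out of the pairs but not of the share of all genes. The 22 pairs concerned 19 genes, of which 11 were among the 37. Of the 37, 5 were called in the isocyanate and 4 in Fipronil carboxamide, where 1.28% and 3.34% of all genes were. In 1(2H)-Phthalazinone and Gabapentin 1 of 37 each was called, beside 1.64% and 5.61% of all genes. The other chemicals outside the methoxyphenol held no call of the 37. Only Rsub_11916 and Rsub_11372 were called in 2 or more chemicals outside their own.

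In Fipronil carboxamide 5 of 98 genes were higher at D1, where 3.34% of all genes were called higher, and 4 of the 5 were among the 37. Rsub_00075 read 6.15, 8.92 and 13.4 CPM at D1 and 0.986, 0.980 and 0.952 CPM in DMSO, and was 2.79 ± 0.59 higher than over D2 to D7 (log2, SE, n = 3; edgeR adjusted p = 0.000184). The D1 and DMSO libraries did not overlap. Rsub_07717 was called at 5.13, 3.72 and 0.955 CPM, but 4 of its other levels had no count and its highest DMSO library there, at 1.96 CPM, was above D1 library C. The other three, Rsub_11916, Rsub_03063 and Rsub_09539, had adjusted p-values between 0.0270 and 0.0395. The number called was 1, 0 and 3 without A, B and C. Without B, Rsub_00075 had an adjusted p of 0.0514, and Rsub_07717 had 0.221 without A and 0.310 without B.

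In 4-chlorophenyl methyl sulfone 1 of 98 listed genes was higher at D1 (0.687% of all genes), and it was Rsub_08082. This gene had its peak in the methoxyphenol at D2, with 32.8, 63.0 and 61.2 CPM there, 24.5, 52.6 and 49.4 CPM at D3 and 18.5, 35.8 and 29.3 CPM at D1. It was therefore lower at D1 than at D2 in each of libraries A, B and C. In the sulfone it read 21.7, 40.4 and 29.3 CPM at D1, 11.9 CPM on average at D2 and between 4.93 and 8.39 CPM at D3 to D7. The DMSO libraries of the sulfone held 4.19, 8.59 and 6.40 CPM, all below its D1 libraries. The edgeR log2 fold change at D1 was 2.13 ± 0.30 with an adjusted p of 7.13e-09, and the gene was still called without library A, B or C. It also read 15.5, 26.0 and 22.9 CPM at isocyanate D1.

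In 1(2H)-Phthalazinone 3 of 95 genes were higher at D1 (1.64% of all genes). Rsub_11916 read 20.5, 24.7 and 22.8 CPM and was 1.85 ± 0.34 higher than over D2 to D7, with an edgeR adjusted p of 5.86e-06. The DMSO libraries of the set held 11.5, 15.4 and 11.7 CPM, below every D1 library and within or above the span of the D2 to D7 means, which ran from 4.63 to 12.2 CPM. Rsub_11372 read 17.1, 21.7 and 16.3 CPM and Rsub_10042 13.7, 5.16 and 8.16 CPM. Their adjusted p-values were 0.0129 and 0.00925 with all libraries. For Rsub_11372 they were 0.0544 without A and 0.307 without B, and for Rsub_10042 0.304, 0.0731 and 0.0569 without A, B and C.

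Other chemicals had 2 calls or fewer among genes that peaked elsewhere, apart from the methoxyphenol. Gabapentin had 2 of 70 (5.61% of all genes), Metribuzin-DA 1 of 97 (0.831%) and Metolachlor OA 1 of 93 (2.11%). The last was Rsub_11372, at 16.1, 8.55 and 15.4 CPM at D1, which was 1.61 ± 0.36 higher (edgeR adjusted p = 0.000528). In Gabapentin the calls were Rsub_02749 and Rsub_01962, and the number called was 1, 0 and 0 without A, B and C. In Metribuzin-DA it was Rsub_01891, whose adjusted p was 0.446 without A. Rsub_06084 was called lower there (1 of 97, where 0.839% of all genes were), with no count in the 3 D1 libraries and 1 to 5 counts in its DMSO libraries, and it was not called without A, B or C. Hydrochlorothiazide had 0 of 99 tested (0.734%), Cetirizine Hydrochloride 0 of 99 (0.578%), Fexofenadine 0 of 100 (1.52%) and cis-nonachlordane 0 of 96 (0.0756%) in edgeR. At an unadjusted p under 0.05 these counts were 5, 4, 4 and 1 in edgeR and 2, 0, 2 and 0 in DESeq2, which called none of them.

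Among the 61 genes that peaked outside the methoxyphenol, 4 were higher and 10 lower at its D1 in edgeR. Of all genes 6.85% were called higher and 4.67% lower. The rule had used these D1 values, since genes highest at methoxyphenol D1 were left out of the 61. The balance of higher and lower calls is therefore not read as a result. The 4 were Rsub_11916, Rsub_02612, Rsub_03705 and Rsub_11632, and only 1 was called without B. Of the 10 lower genes 8 had their peak in Gabapentin, as had 30 of the 61. Rsub_12276 had no count in any D1 library and read 5.90, 5.73 and 6.04 CPM at D2. Rsub_04921 read 0, 0.762 and 1.54 CPM at D1 and between 2.59 and 17.8 CPM at D2 to D7, with no overlap. Its log2 fold change was -3.03 ± 0.71 with an adjusted p of 0.00126. The number of lower genes was 4, 2 and 2 without A, B and C.

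The 30 genes that peaked in Gabapentin differed from the 37 in their DMSO levels. Their DMSO median was 3.87 CPM, their median peak 15.4 CPM and their median ratio 4.12. All 3 peak libraries were above their own DMSO libraries in 17 and above all 18 DMSO libraries in 16. Of the 30, 13 were on in the DMSO set that Gabapentin shared with 1(2H)-Phthalazinone, and 27 were on in at least 1 level of 1(2H)-Phthalazinone. In 23 the highest DMSO set was that shared set.

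Their summed level was above that of the other DMSO sets in every library of both chemicals and in their shared DMSO libraries. Gabapentin D1 summed to 366, 393 and 460 CPM and its D2 to D7 means to between 277 and 318 CPM. The level means of 1(2H)-Phthalazinone lay between 223 and 257 CPM. The shared DMSO libraries summed to 226, 211 and 252 CPM, and the means of the other 5 DMSO sets lay between 50.3 and 114 CPM. The libraries of this set were thus above those of other sets even without either chemical, and what set them apart is not given in the sources used here. Treatment and the level of the set in DMSO were not told apart by the rule, which averaged DMSO over all 6 sets.

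**Figure D5:**
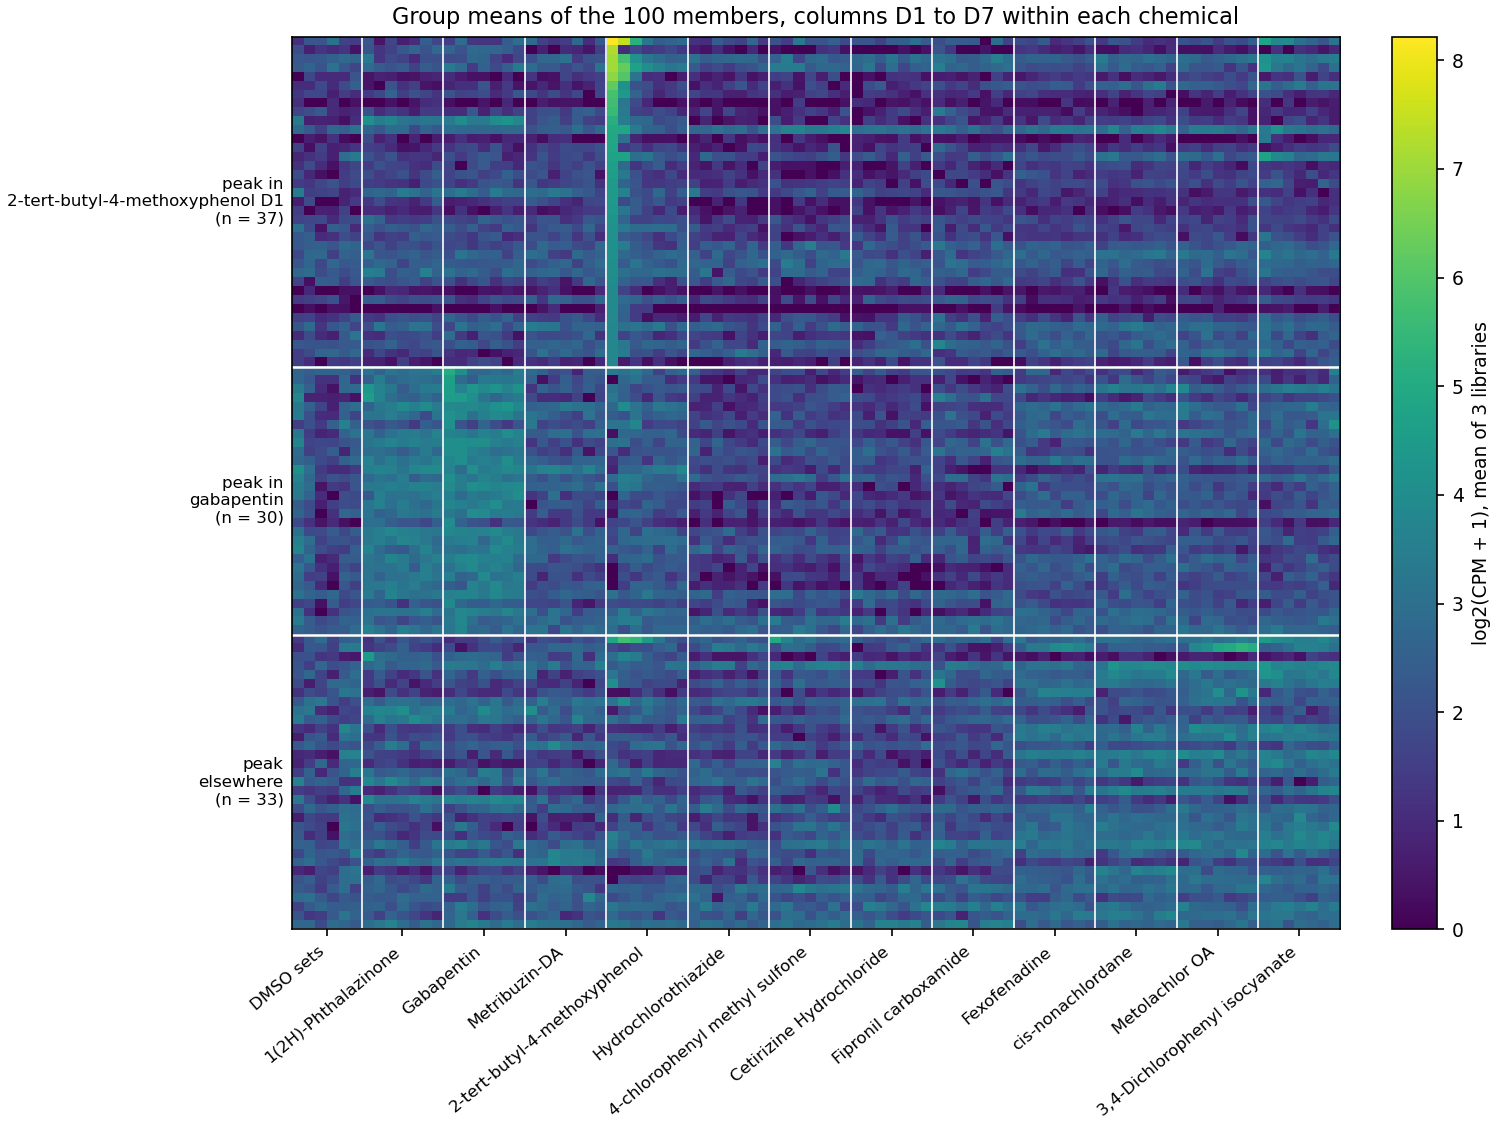
Group mean of each of the 100 genes (rows, in blocks by peak and in order of peak mean within a block) over the 6 DMSO sets and the 84 treated groups (columns, D1 to D7 from left to right within each chemical), as log2(CPM + 1), mean of 3 libraries. The 37 genes of the upper block are brightest at D1 of 2-tert-butyl-4-methoxyphenol, and fewer of them are on at D2. The 30 of the middle block are raised as a sum in 1(2H)-Phthalazinone and Gabapentin, but not each gene at every level. Of the 30, 27 were on in at least 1 level of 1(2H)-Phthalazinone.

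The Gabapentin gene with the highest peak mean was Rsub_00423, at 29.1, 25.5 and 43.4 CPM at D1. It read 12.7, 12.0 and 24.1 CPM at D2, against 0, 6.82 and 9.39 CPM in DMSO. Its D1 and D2 libraries were all above the DMSO libraries of the set. The highest ratio of peak mean to DMSO mean among the 30 genes was that of Rsub_04767, at 15.8. In edgeR's test of D2 against D3 to D7, with D1 and DMSO left out, 2 of the 9 genes that peaked at Gabapentin D1 were higher, where 0.689% of 13060 genes were called higher. Rsub_00423 was 1.25 ± 0.37 higher (log2, SE, n = 3) with an adjusted p of 0.0473. Rsub_11916, named for this call, read 15.9, 15.2 and 34.1 CPM at D2 and was 1.28 ± 0.32 higher with an adjusted p of 0.0102. Neither was called without B or without C, with adjusted p-values of 0.159 and 0.680 for Rsub_00423 and 0.0745 and 0.244 for Rsub_11916. DESeq2 gave neither an adjusted p, and 2 of the 9 genes had an unadjusted p under 0.05 and were higher.

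Rsub_11916 was raised at D1 in several chemicals. It read 22.8, 25.5 and 21.3 CPM in Gabapentin D1, close to the 22.7 CPM mean of 1(2H)-Phthalazinone D1. Besides the latter it was called higher at D1 in Fipronil carboxamide, at 10.3, 10.4 and 12.4 CPM, and in the methoxyphenol. In the shared DMSO set it averaged 12.8 CPM, while 9 of all 18 DMSO libraries held no count of it. Without B the methoxyphenol call had an adjusted p of 0.207, and the Fipronil carboxamide call had 0.0571, 0.240 and 0.395 without A, B and C.

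Some other leading Gabapentin genes were less separate from DMSO than Rsub_00423. Rsub_12276 read 15.7, 17.8 and 39.3 CPM at D1 against 2.29, 5.97 and 7.82 CPM in DMSO, with no overlap, and 6.30 CPM on average at D2. Rsub_11372 read 22.0, 14.4 and 34.4 CPM at D1, but DMSO library A held 18.3 CPM and the groups overlapped. Rsub_04921 read 13.2, 28.8 and 5.16 CPM at its D3 peak and 21.8, 9.38 and 17.2 CPM in DMSO, so its DMSO mean was as high as its peak mean. Rsub_09055 read 21.5, 10.6 and 10.2 CPM at D5 and 21.8, 8.53 and 6.26 CPM in DMSO, and the groups overlapped. For these 2 genes the label of a gene switched on does not hold within the control set. Of all 100 listed genes, 23 were on in the DMSO libraries of their own set.

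No gene of the Gabapentin D2, D3 and D5 peak groups, 5 genes each, was called higher in edgeR at the level next to the peak against the remaining levels, where 0.00765%, 0.00766% and 0.742% of all genes were. None of the 15 had an unadjusted p under 0.05 and a positive change in edgeR or DESeq2, and DESeq2 gave none an adjusted p. Against 1(2H)-Phthalazinone at the level next to the peak, edgeR called 0 of the 9 genes of the D1 group (0.535% of all genes) and 0 of 5 in each of the D2, D3 and D5 groups (0.354%, 0.346% and 0.377%). At an unadjusted p under 0.05, 1 of the 9 was higher in edgeR and 1 in DESeq2, and none in the other three groups. The log2 fold change was above 0 in 6 of the 9 genes and in 5, 5 and 4 of the 5 in the D2, D3 and D5 groups. A missed threshold does not show that both chemicals gave the same level.

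The remaining 33 genes had a median peak of 14.1 CPM and a median ratio of 3.56. Only 10 of them had all 3 peak libraries above all 18 DMSO libraries. Rsub_04680 was one of the few sharp ones, at 20.5, 22.7 and 20.4 CPM in 1(2H)-Phthalazinone D1 against 0, 5.97 and 3.13 CPM in DMSO. No library of the peak overlapped the DMSO libraries of its set or any of the 18, whose highest held 6.16 CPM.

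Rsub_12349 peaked in Metolachlor OA D7 at 12.0, 64.2 and 22.8 CPM, and its libraries differed by replicate letter at most levels. At D6 it read 2.40, 62.8 and 53.0 CPM, a higher mean that failed the rule through library A. Library A was the lowest of the 3 at D2 to D7, and in the DMSO set with 3.00 CPM against 15.0 and 10.5 CPM. At D1 it read 2.30, 6.99 and 1.71 CPM, below the other levels of the same letter. In Fexofenadine it was called lower at D1, at 3.27, 6.02 and 3.39 CPM, with a log2 fold change of -1.41 ± 0.37 and an edgeR adjusted p of 0.00603, together with Rsub_10734 and Rsub_13022, where 2.64% of all genes were called lower. All 3 had their peak in Metolachlor OA, which had other DMSO libraries. None of the 3 was called without B or without C.

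Some genes were on in most chemicals. Rsub_08679 was on in 39 treated groups of 11 chemicals, with a peak of 27.1, 27.1 and 5.52 CPM in isocyanate D1. Rsub_01310 was on in 11 chemicals, and Rsub_05446, Rsub_05126 and Rsub_00448 in 10. Rsub_05446 was on in 41 groups, the most of the 100, with a DMSO mean of 4.83 CPM just under the limit of 5. For such genes the threshold lay within their usual range.

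The limit of the list cut through a dense stretch of values. Rsub_01600, Rsub_12765 and Rsub_00448 were the last genes inside, with the last at 12.6 CPM. Rsub_10497, Rsub_02368 and Rsub_05551 were the first outside, with the first at 12.5 CPM. Rsub_07191 was an example of a gene with single high libraries. It held 26.7 CPM in 1 DMSO library of the Fexofenadine and cis-nonachlordane set. Its peak in Gabapentin D1 read 6.29, 16.1 and 27.0 CPM. Isocyanate D7 read 41.7, 6.24 and 3.47 CPM, a higher mean that failed the rule through library C. Methoxyphenol D3 read 33.4, 2.59 and 1.83 CPM.

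Against the DMSO libraries of their own set, which the rule had used in part, the listed genes stood as follows, with nothing read from the counts. Of the 37 genes 36 passed edgeR's filter on low counts and 33 were called higher at D1, where 10.4% of 9435 genes were called higher. Of the 9 Gabapentin D1 genes 6 passed and 3 were called (7.25% of all genes). Of the 5 genes each of Gabapentin D2, D3 and D5, 0, 1 and 1 were called (3.43%, 2.74% and 2.36%), and 2, 2 and 3 had an unadjusted p under 0.05 in edgeR. DESeq2 called 32 of the 36 and 3 of the 6. The count for Gabapentin D1 was 7, 2 and 2 without A, B and C.

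Close identifiers occurred among the 37. Rsub_09539, Rsub_09542 and Rsub_09543 all peaked in methoxyphenol D1, at 13.0, 16.6 and 17.9 CPM on average, and the latter pair are the only consecutive identifiers among the 100. Rsub_09543 read 24.7, 16.8 and 12.4 CPM at D1 and at most 3.30 CPM in its DMSO libraries, while Rsub_09542 read 6.17, 26.7 and 17.0 CPM and overlapped its DMSO libraries, which reached 6.47 CPM. Whether close identifiers mark neighbouring genes or near-identical copies is not given in the sources used here, so reads shared between them cannot be told from separate transcripts.

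At methoxyphenol D1 the library scaling factor by TMM was between 0.939 and 0.956, and that of library C was the lowest of all 270. The other 267 libraries ran from 0.939 to 1.09 with a median of 1.00. The mean factor was 0.947 at methoxyphenol D1 and 0.946 at Gabapentin D1. The number of genes with a count was between 10711 and 11026 at methoxyphenol D1, within the 10471 to 11531 of the other libraries. The part of these library properties in the results was not tested.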

How the data were processed

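The authors deposited raw counts of reads per gene in 1 table for each chemical, with 270 libraries in all. The submitters' processing notes name STAR 2.7.10a, featureCounts 2.0.6, fastp 0.23.2 and SAMtools 1.15.1. The libraries were 3′ tag libraries with molecular identifiers, per the labels' protocols, so counts depend little on transcript length. Not given in the sources used here are the annotation, genome build and strand setting, or any collapsing of reads by molecular identifier, and reads of near-identical or overlapping genes could be split. If reads were not collapsed, counts include PCR copies.

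CPM was the count times 1000000 over the column total. The genes and all tests were chosen with earlier results of these data known. Tests used edgeR 4.0.16 in R 4.3.3 (glmQLFit and glmQLFTest, TMM scaling, 1 coefficient a group) on all genes with a count in the fit and no filter on low counts. The contrast with DMSO alone used filterByExpr at its defaults. Benjamini and Hochberg's adjustment ran over all genes of a fit, and genes with an adjusted p under 0.05 were called. Each standard error is the log2 fold change over the square root of F. The tests were checked on simulated counts. DESeq2 1.42.0, RLE scaling, filters on low counts, a block for the replicate letter and leaving out each letter were alternatives, and DESeq2's independent filter left most of these low genes without an adjusted p. Tables were handled in Python 3.11.15 with pandas 2.3.3.

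By the rule for named genes, the text names the 20 with the highest peak means, the 3 highest in each peak group of 5 or more, the 5 on in the most chemicals, the 3 with the highest single DMSO library and the 3 genes on each side of the limit. All other identifiers were named after their values were seen. No gene list could be used, since no names are paired with the identifiers.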

Additional observations from a re-analysis of the deposited data

Results flagged for a closer look

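Of the 37 genes that peaked in 2-tert-butyl-4-methoxyphenol D1, some differed between 2 chemicals with the same DMSO libraries in a direct test of that difference. The test was at D2. Under the rule, D2 of either chemical, where it was on, could not exceed methoxyphenol D1. The shared DMSO libraries also entered the DMSO limit of the rule. In this test 10 of the 37 were higher in 2-tert-butyl-4-methoxyphenol than in Metribuzin-DA. None was lower, which is not read as a result because the rule bounded Metribuzin-DA D2. Of all genes 4.22% were called higher, and the other 27 were not called (edgeR, adjusted over all 13257 genes, 3 libraries a group).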

How the results depend on the processing

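The list depended on its limits. With DMSO means under 2, under 10, or every DMSO library under 5 CPM, 17, 22 and 12 of the 100 genes were shared. In the last case 36 genes qualified, with 16 at methoxyphenol D1, 3 at Gabapentin D1 and 3 at Gabapentin D2 to D7. Gabapentin D1 held 4 with DMSO under 2, and D2 to D7 held 6 with DMSO under 10. Leaving out a letter gave 67 to 74 shared genes, 25 to 32 at methoxyphenol D1, 7 to 10 at Gabapentin D1 and 12 to 18 at Gabapentin D2 to D7.

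Filters on low counts removed most of the genes before testing. With filterByExpr the D2 test within the methoxyphenol called 7 of 12 genes left, and with a mean of at least 10 counts 6 of 6. The test against Metribuzin-DA called 3 of 3 with that minimum, and 2 in DESeq2. The Gabapentin D1 group had 0 calls at D2 with either filter. Without a filter, the DMSO contrast called 6 of its 9 genes.

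In the tests of D1 in other chemicals, filterByExpr gave 0 genes higher in Gabapentin, 2 in the methoxyphenol, 1 in Fipronil carboxamide, 2 in Metolachlor OA and 3 in the isocyanate, and 0 lower in Metribuzin-DA and 2 in the methoxyphenol. The minimum of 10 counts gave 0 in 1(2H)-Phthalazinone, Gabapentin and Metolachlor OA, 2 in the isocyanate and 1 lower in Fexofenadine. DESeq2 gave 0 in Gabapentin and Metolachlor OA and 1 lower in Fexofenadine.

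Leaving out a letter gave 13 to 17 genes within the methoxyphenol, 7 to 9 against Metribuzin-DA and 0 to 2 within Gabapentin. In the DMSO contrast it gave 25 to 31 for methoxyphenol D1, 2 to 7 for Gabapentin D1, 0 to 1 for D2, and 0 for D3 and D5. At D1 it gave 1 to 2 genes higher in 1(2H)-Phthalazinone, 0 to 1 in Gabapentin, 0 to 1 in Metribuzin-DA, 1 to 4 in the methoxyphenol and 0 to 3 in Fipronil carboxamide. It gave 0 lower in Metribuzin-DA, 2 to 4 in the methoxyphenol and 0 to 2 in Fexofenadine. The cause of these shifts was not tested beyond the smaller number of libraries.

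Letters were not taken to pair the libraries, since that needed every pair with the same letter to have deviations correlated above 0.1. Of 756 pairs 279 did, and the lowest value was -0.164. The sharing differed by letter, with 19, 0 and 21 of 21 pairs above 0.1 for A, B and C in the methoxyphenol and 21, 1 and 20 in the isocyanate. With the replicate block, 18 genes were called within the methoxyphenol and 9 against Metribuzin-DA, 2 of 5 against DMSO at Gabapentin D3, and 0 lower in Metribuzin-DA at D1. For single genes, 53 called changes had 331 alternative values, of which 265 kept their call, 66 lost it and 0 reversed. RLE scaling kept all 53. Peak libraries held a median of 17.3 counts a gene, which limits the precision of each value.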
